A study of Homo sapiens with 42 samples.

Results

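The genes described here were 9 enzymes of serine synthesis and folate metabolism, PHGDH, PSAT1, PSPH, SHMT1, SHMT2, MTHFD1, MTHFD2, MTHFD1L and ALDH1L2, picked by symbol from the 57353 gene names of the count table. Each symbol had a single row, and all 9 passed the filter on low counts, which kept 12939 genes. All 21 cultures were MOLM-13, a cell line from acute myeloid leukemia in which FLT3 is activated by an internal tandem duplication (FLT3-ITD), and treatment lasted 12 hours. Quizartinib (AC220), a FLT3 inhibitor, was used at 3 nM, and everolimus, an inhibitor of mTORC1, at 10 nM. The cultures in RPMI, a standard medium, received vehicle, quizartinib or both drugs (combo). Those in hBMSC-CM, which is medium conditioned by HS-5 bone marrow stromal cells mixed in equal parts with fresh RPMI, received vehicle, quizartinib, everolimus or combo. Each of the 7 conditions had 3 replicates, each with a library of total poly(A) RNA (input) and a library of heavy polysome RNA. The latter came from the part of a sucrose gradient with messages that carry many ribosomes, so 42 libraries were compared. The labels number input and polysome libraries alike but do not say that same-numbered ones came from the same culture. Values of polysome minus input per culture take them as such. The effect of hBMSC-CM holds no contact with stromal cells, and what those cells released and what they used up from the medium cannot be told apart in it.

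Serine is made from the glycolytic intermediate 3-phosphoglycerate by PHGDH, PSAT1 and PSPH in turn. SHMT1 in the cytosol and SHMT2 in mitochondria split serine into glycine and a carbon unit carried by tetrahydrofolate. In mitochondria MTHFD2 oxidizes this unit and MTHFD1L releases it as formate, MTHFD1 takes formate up again in the cytosol for purine and thymidylate synthesis, and ALDH1L2 burns the mitochondrial unit to CO2 while making NADPH. The pathway feeds nucleotide synthesis in growing blood cells, its mitochondrial arm is prominent in leukemia, and ATF4 and MYC are known regulators of its genes.

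Promoter sequences are shown for the gene with the smallest adjusted p under quizartinib in RPMI (MTHFD1L), the cytosolic enzyme that most resembled it across the input libraries (MTHFD1) and the gene with the largest difference between media in the quizartinib effect (MTHFD2). RefSeq promoter windows on GRCh38.p14, 300 bases from 250 before to 50 after a start site, were found for 6 of the 9 genes and gave 9 windows, of which MTHFD1L had 4. They were searched on both strands for TGATGNAA, the letters known as an ATF4 response element, and for CACGTG, the E-box that MYC and other factors can bind. The first was in 3.62% and the second in 7.26% of the 35116 windows of the table. Capitals mark these letters in the 250 bases before the start site, all on the plus strand (MTHFD1L chr6:150866236-150866485, MTHFD1 chr14:64388103-64388352, MTHFD2 chr2:74198365-74198614).
MTHFD1L: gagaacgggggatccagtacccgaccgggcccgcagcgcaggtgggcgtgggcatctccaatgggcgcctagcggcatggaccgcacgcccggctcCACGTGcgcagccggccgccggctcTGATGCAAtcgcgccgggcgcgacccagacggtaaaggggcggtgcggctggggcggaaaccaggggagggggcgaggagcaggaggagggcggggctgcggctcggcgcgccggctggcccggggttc
MTHFD1: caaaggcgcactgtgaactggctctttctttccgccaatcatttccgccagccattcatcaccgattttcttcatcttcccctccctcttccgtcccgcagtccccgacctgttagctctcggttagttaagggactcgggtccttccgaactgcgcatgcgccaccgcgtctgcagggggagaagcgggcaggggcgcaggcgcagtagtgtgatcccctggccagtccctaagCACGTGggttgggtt
MTHFD2: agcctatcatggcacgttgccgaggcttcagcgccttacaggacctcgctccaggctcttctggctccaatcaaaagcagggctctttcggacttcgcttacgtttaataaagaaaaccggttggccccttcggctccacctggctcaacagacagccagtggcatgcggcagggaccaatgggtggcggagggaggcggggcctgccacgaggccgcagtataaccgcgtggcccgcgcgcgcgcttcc
In this MTHFD1L window CACGTG began 154 and TGATGNAA 129 bases before the start site. The windows of 2 other MTHFD1L starts overlap it and hold the same letters, and the window of the farthest start holds neither. MTHFD1 held CACGTG 15 bases before its start site and no TGATGNAA. Neither run of letters was in the windows of MTHFD2, PHGDH, PSAT1 or SHMT1. PSPH, SHMT2 and ALDH1L2 had no matched window. A match is a description of these letters and not a measured binding site.

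Levels are CPM, counts scaled to a common library total, adjusted with TMM factors, which correct for differences in library composition, and changes are log2 values from an edgeR quasi-likelihood fit, with genes called at a Benjamini-Hochberg adjusted p under 0.05. The study states that its replicates are biological, while the labels do not say how the cultures of a group were grown, and p-values measure the spread between these samples. In bulk RNA, fewer cells of a kind and less RNA per cell cannot be told apart. Input libraries held 19.4 to 37.2 M counts and polysome libraries 21.5 to 38.8 M, where M is megacounts. Of 10 myeloid markers, 9 were detected in all 42 libraries. CD68 had counts in all but 1, at a mean of only 0.469 CPM. Of 12 stromal markers, COL3A1, LUM and POSTN were at 0 in all libraries. Without VIM, which leukemia cells express, the stromal markers summed to between 1.02 and 5.02 CPM of the library total in RPMI vehicle input. The sum was between 1.06 and 3.59 CPM in hBMSC-CM vehicle input and between 10.2 and 42 CPM under quizartinib in RPMI. COL1A1 had a mean of 10.1 CPM over the libraries (highest 38.8), and every other marker in the sum a mean of 0.765 CPM or less. The part of these markers in the results was not tested. The 5 lymphoid markers summed to between 1.04 and 7.63 CPM in every library. The hBMSC-CM everolimus libraries stood apart: the median SD of log2 CPM over genes was 0.098 in their input group and between 0.201 and 0.312 in the other 6, and their deviations from the group mean did not follow those of other conditions with the same replicate number (r between -0.059 and 0.002 for input, against 0.284 to 0.658 for pairs without everolimus). Their replicates still differed by more than sampling noise, with a chi-square per gene of 4.78 to 16.6, where 1 is expected from sampling.

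In RPMI without drug SHMT2 had the highest level per length of the 9 genes and ALDH1L2 the lowest, whether CPM were divided by coding length or by all exon positions. Per kilobase of coding length, input SHMT2 was 208 CPM ± 7.72 (SD, n = 3) and PHGDH 172 ± 12.7. The ranges of SHMT2 and PHGDH did not overlap. MTHFD2 followed at 102 ± 19.03, PSAT1 at 95.2 ± 34.5 and MTHFD1 at 69.2 ± 7.82 CPM per kilobase, and the range of PSAT1 overlapped those of both neighbours. PSPH at 47.6 ± 9.70 and MTHFD1L at 46.2 ± 2.33 CPM per kilobase could not be told apart. SHMT1, the cytosolic partner of SHMT2, was at 16.4 ± 0.723 and ALDH1L2 at 3.15 ± 0.913 CPM per kilobase. The order in the middle depends on the length used: per kilobase of exon positions PSAT1 was 2nd, PHGDH 3rd, MTHFD1L 4th and MTHFD2 7th.

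**Figure D1:**
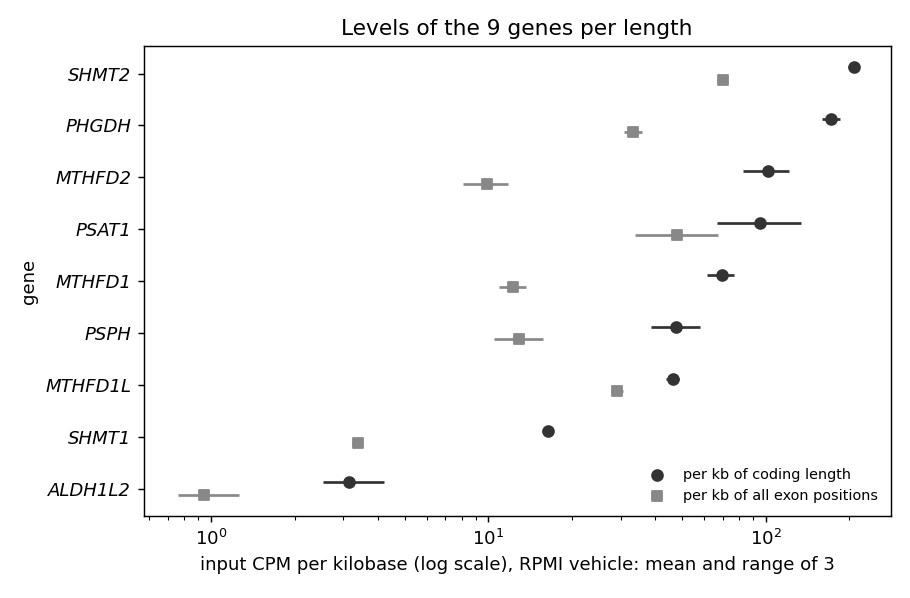
Input level of the 9 genes in RPMI vehicle as CPM per kilobase on a log axis, with the mean (point) and range (line) of 3 cultures, for coding length and for all exon positions. SHMT2 is highest and ALDH1L2 lowest on both scales, while MTHFD2 drops from 3rd to 7th place when all exon positions are counted.

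Under quizartinib in RPMI all 9 genes fell in input RNA, where 34.6% of the genes tested were called and 18.0% were called lower. Their median log2 change was -1.79, and that of all genes tested was 0.08. The comparison asks how blocking FLT3 alters these messages in plain medium. For the serine synthesis enzymes, PHGDH, the first step, was at 303, 283 and 328 CPM in vehicle and at 123, 113 and 93.0 CPM under quizartinib. The groups did not overlap, and the log2 change was -1.48 (SE 0.34, adjusted p = 0.00093). PSAT1, the aminotransferase of the second step, went from 148, 94.3 and 74.2 CPM to 20.8, 13.4 and 9.71 CPM, a log2 change of -2.85 (SE 0.31, adjusted p = 5.53e-09). The mean of PSAT1 under the drug was 13.9% of its vehicle mean. PSPH, the phosphatase of the last step, was at 43.4, 34.7 and 28.9 CPM in vehicle and at 22.8, 20.6 and 17.1 CPM under quizartinib. Its change of -0.82 (SE 0.32) was nearest the threshold (adjusted p = 0.0421). The PSPH call was lost without RPMI vehicle replicate 1 (-0.66, adjusted p = 0.174) or 2 (-0.84, adjusted p = 0.0738) and without RPMI quizartinib replicate 1 (-0.92, adjusted p = 0.0579), 2 (-0.84, adjusted p = 0.0697) or 3 (-0.72, adjusted p = 0.106), and with RLE factors (-0.77, adjusted p = 0.0609).

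Both serine hydroxymethyltransferases fell as well. SHMT1 in the cytosol was at 22.5, 24.3 and 24.4 CPM in RPMI vehicle and at 10.8, 14.6 and 11.2 CPM under quizartinib (log2 change -0.96, SE 0.24, adjusted p = 0.0017). SHMT2 in mitochondria went from 328, 307 and 327 CPM to 203, 161 and 166 CPM (log2 change -0.86, SE 0.26, adjusted p = 0.00813). These groups did not overlap, and the means under the drug were 51.3% and 55.0% of vehicle. Among the 9 genes these falls and that of PSPH were the smallest in value, and the differences between genes were not tested.

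The folate enzymes downstream had large falls in RPMI. MTHFD1, the cytosolic enzyme with 3 activities, was at 238, 190 and 214 CPM in vehicle and at 62.5, 39.2 and 32.6 CPM under quizartinib (log2 change -2.25, SE 0.27, adjusted p = 3.87e-08). MTHFD2, the mitochondrial dehydrogenase and cyclohydrolase, went from 135, 113 and 92.4 CPM to 36.8, 36.9 and 24.6 CPM (log2 change -1.79, SE 0.21, adjusted p = 2.86e-08). MTHFD1L, the mitochondrial enzyme that releases formate, was at 149, 135 and 143 CPM and fell to 24.4, 23.4 and 16.4 CPM (log2 change -2.73, SE 0.22, adjusted p = 6.92e-12). Every culture with the drug was below every vehicle culture for these genes. ALDH1L2, which oxidizes the folate-bound carbon, was at 11.9, 7.73 and 7.20 CPM in vehicle and at 1.07, 0.885 and 1.25 CPM under quizartinib. Its log2 change was -3.06 (SE 0.63, adjusted p = 0.000222) and rests on counts of 213 to 473 per library in vehicle and 35 to 46 under the drug.

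**Figure D2:**
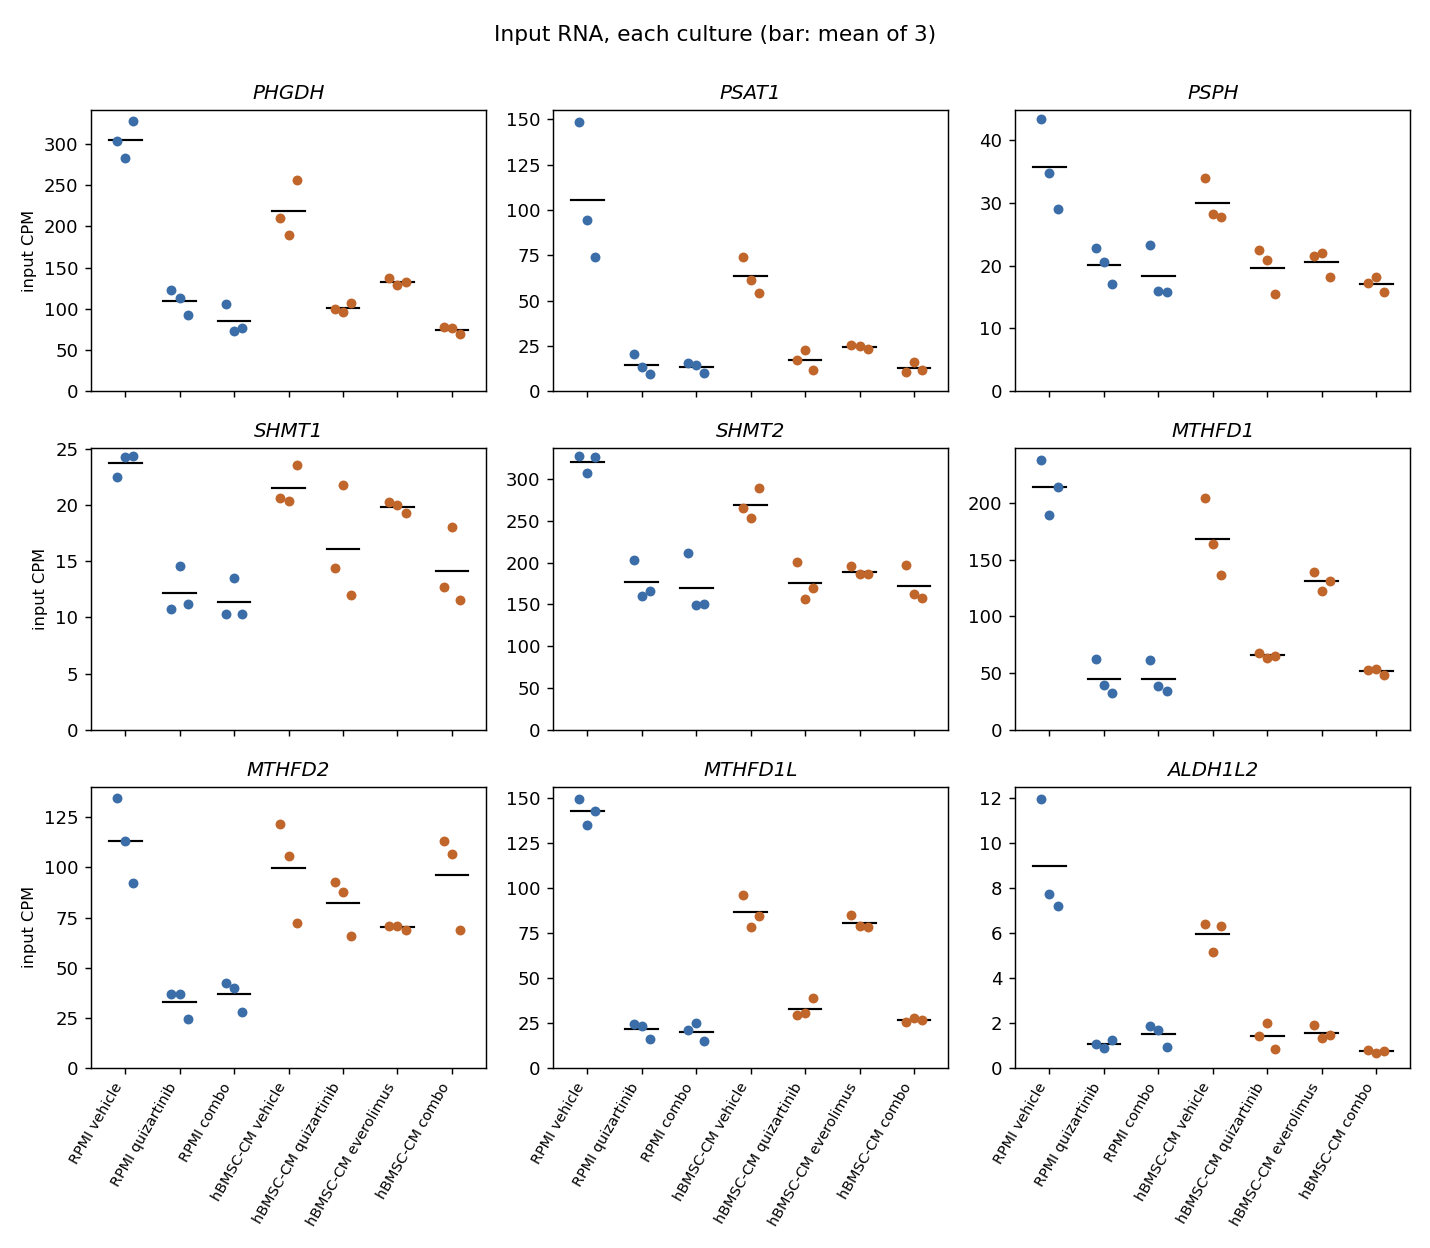
Input CPM of each gene in every culture (points) with the mean of 3 (bar) for the 7 conditions, RPMI in blue and hBMSC-CM in orange, each panel with its own linear axis from 0. MTHFD2 stays between 65.9 and 92.5 CPM under quizartinib in hBMSC-CM while it lies between 24.6 and 36.9 CPM in RPMI, and PSAT1 in every drug condition lies below the vehicle cultures of the same medium.

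In hBMSC-CM quizartinib lowered 5 of the 9 genes, PHGDH, PSAT1, MTHFD1, MTHFD1L and ALDH1L2. Of all genes tested 12.3% were called and 6.84% were called lower, and the median log2 change was -1.12 for the 9 genes and 0.01 for all. PHGDH went from 211, 190 and 257 CPM to 99.5, 96.1 and 107 CPM (log2 change -1.12, SE 0.34, adjusted p = 0.0277). PSAT1 went from 74.4, 61.4 and 54.5 CPM to 17.3, 22.7 and 12.0 CPM (log2 change -1.87, SE 0.30, adjusted p = 8.82e-05). Neither pair of groups overlapped. MTHFD1 went from 204, 163 and 137 CPM to 68.0, 63.6 and 64.8 CPM (log2 change -1.36, SE 0.26, adjusted p = 0.000712). MTHFD1L went from 96.2, 78.3 and 84.3 CPM to 29.2, 30.4 and 39.1 CPM (log2 change -1.39, SE 0.21, adjusted p = 3.77e-05). ALDH1L2 went from 6.42, 5.17 and 6.30 CPM to 1.45, 2.01 and 0.841 CPM (log2 change -2.04, SE 0.61, adjusted p = 0.0238). Again no group of these genes overlapped the other.

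MTHFD2 was at 121, 106 and 72.2 CPM in hBMSC-CM vehicle and at 92.5, 88.0 and 65.9 CPM under quizartinib, so the groups overlapped. Its log2 change was -0.28 (SE 0.20, adjusted p = 0.411), with an interval of 1.96 SE from -0.68 to 0.12. SHMT1 also overlapped, at 20.6, 20.4 and 23.5 CPM in vehicle and 14.4, 21.8 and 12.0 CPM under the drug (log2 change -0.42, SE 0.24, adjusted p = 0.261). SHMT2 at 266, 254 and 290 CPM against 201, 157 and 169 CPM (log2 change -0.62, adjusted p = 0.107) and PSPH at 33.9, 28.2 and 27.7 CPM against 22.4, 20.9 and 15.4 CPM (log2 change -0.61, adjusted p = 0.219) were not called. Their groups did not overlap, with no count of how many of all genes also did not.

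The replicate numbers paired the libraries of these conditions. With the number as a block within each fraction 8 genes were called lower under quizartinib in hBMSC-CM, with SHMT2 at -0.63 (adjusted p = 0.0021), PSPH at -0.62 (adjusted p = 0.0169) and SHMT1 at -0.46 (adjusted p = 0.0342), and MTHFD2 remained uncalled. With a single block over both fractions SHMT2 was added (-0.64, adjusted p = 0.0145). The PHGDH call was lost without hBMSC-CM vehicle replicate 3 (-0.99, adjusted p = 0.0839) or without hBMSC-CM quizartinib replicate 1 (-1.11, adjusted p = 0.0544) or 2 (-1.08, adjusted p = 0.0895). That of ALDH1L2 was lost without hBMSC-CM vehicle replicate 1 (-1.99, adjusted p = 0.0556) or 3 (-2.01, adjusted p = 0.0588) and without hBMSC-CM quizartinib replicate 1 (-2.04, adjusted p = 0.0776) or 3 (-1.78, adjusted p = 0.0943).

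The difference between media in the quizartinib effect was called for 2 genes, MTHFD2 and MTHFD1L, against 1.96% of all genes tested. Of all genes 1.79% were called with a difference above 0, which for MTHFD2 and MTHFD1L was a weaker fall in hBMSC-CM. For MTHFD2 the difference was 1.51 on the log2 scale (SE 0.29, adjusted p = 0.00227), and for MTHFD1L 1.34 (SE 0.29, adjusted p = 0.00661). Both were called under every alternative run, with adjusted p between 8.24e-07 and 0.0209 for MTHFD2 and between 0.000137 and 0.0275 for MTHFD1L. MTHFD1L still fell in hBMSC-CM, whereas MTHFD2 did not pass the test there. The other 7 genes had differences from 0.21 for PSPH to 1.02 for ALDH1L2 and were not called. With the replicate block within fraction 4 genes were called, MTHFD1 (0.95, adjusted p = 0.0123) and PSAT1 (0.97, adjusted p = 0.0267) in addition.

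**Figure D3:**
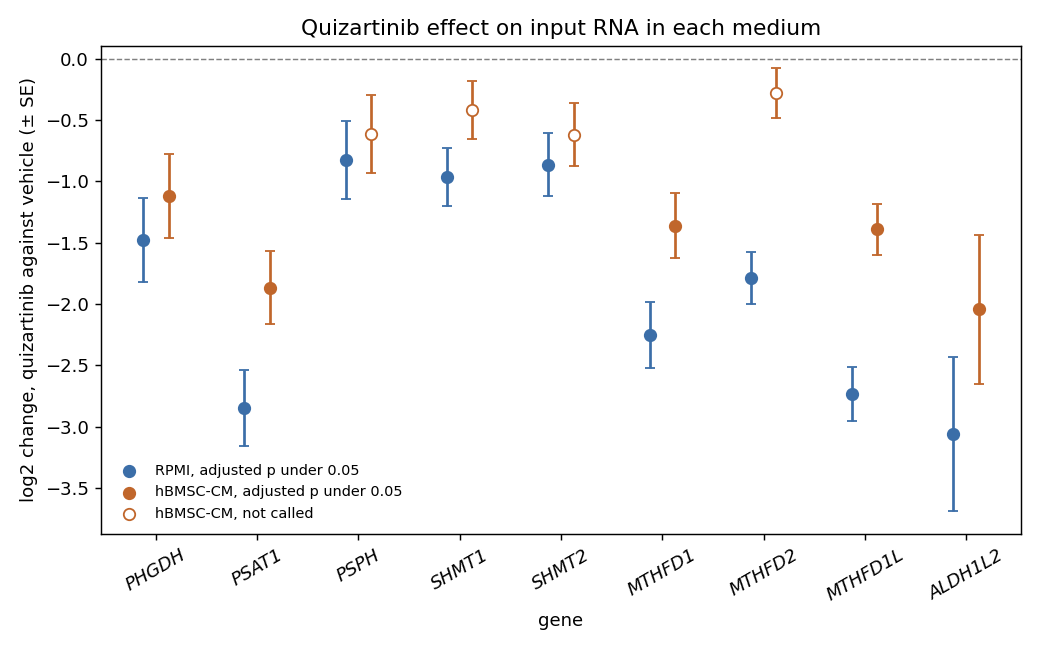
Log2 change of input RNA under quizartinib against vehicle, with SE, for the 9 genes in RPMI (blue) and hBMSC-CM (orange), where filled points have an adjusted p under 0.05. All 9 points in RPMI are filled and below 0, and MTHFD2 moves from -1.79 in RPMI to -0.28 in hBMSC-CM.

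Without drug edgeR called none of the 9 genes different between media in input RNA, while 1.51% of all genes were called. Unadjusted, 2 had a p under 0.05, and limma voom and DESeq2 each called 1. The lowest adjusted p was that of MTHFD1L, 149, 135 and 143 CPM in RPMI and 96.2, 78.3 and 84.3 CPM in hBMSC-CM (log2 change -0.72, SE 0.20, adjusted p = 0.069). Those MTHFD1L groups did not overlap. MTHFD1L was called lower with the replicate number as a block (-0.73, adjusted p = 0.0224) and within fraction (-0.72, adjusted p = 0.00414), where PSAT1 was called too (-0.70, adjusted p = 0.0267).

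Under quizartinib MTHFD2 was the only one of the 9 genes called between media, with a log2 difference of 1.33 in favour of hBMSC-CM (SE 0.21, adjusted p = 2.53e-05). Of all genes 8.16% were called and 6.11% called higher in hBMSC-CM. The 3 hBMSC-CM cultures were all above the 3 RPMI cultures. MTHFD1L was at 24.4, 23.4 and 16.4 CPM in RPMI and 29.2, 30.4 and 39.1 CPM in hBMSC-CM (log2 difference 0.62, SE 0.21, adjusted p = 0.0561), and MTHFD1 differed by 0.55 (SE 0.26, adjusted p = 0.248). MTHFD1L was called higher with the replicate number as a block (0.62, adjusted p = 0.0243), and with the block within fraction MTHFD1L (0.63, adjusted p = 0.00572) and MTHFD1 (0.59, adjusted p = 0.0163) were both called. Without RPMI quizartinib replicate 1 MTHFD1 was also called (0.87, adjusted p = 0.047). This comparison shares its cultures with the quizartinib comparisons above. The CPM of MTHFD2 divided by that of MTHFD1L in the same culture is a ratio of levels not scaled to length. In RPMI it was 0.903, 0.837 and 0.647 in vehicle, 1.51, 1.58 and 1.5 under quizartinib and 2.02, 1.61 and 1.85 under combo. In hBMSC-CM it was 1.26, 1.35 and 0.856 in vehicle and 3.16, 2.89 and 1.69 under quizartinib. Everolimus there gave 0.833, 0.9 and 0.882, and combo 4.42, 3.83 and 2.57. No combo culture in hBMSC-CM was below a vehicle culture in either medium.

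For everolimus added to quizartinib, edgeR called none of the 9 genes in input RNA, in hBMSC-CM (0.240% of all genes called) or in RPMI (0.00773% called). None had an unadjusted p under 0.05, and limma voom and DESeq2 called none. In hBMSC-CM the log2 changes ran from -0.96 for ALDH1L2 to 0.23 for MTHFD2 and in RPMI from -0.36 for PHGDH to 0.48 for ALDH1L2. MTHFD2 was at 113, 107 and 68.6 CPM under combo in hBMSC-CM, which overlapped the quizartinib cultures.

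Combo against vehicle in hBMSC-CM lowered 5 genes, PHGDH, PSAT1, MTHFD1, MTHFD1L and ALDH1L2, and shares its vehicle cultures with the quizartinib comparison. Of all genes 26.5% were called and 15.1% called lower, and the median log2 change was -1.55 for the 9 genes and 0.02 for all genes. PSAT1 went to 10.9, 16.0 and 11.7 CPM (log2 change -2.30, SE 0.30, adjusted p = 6.45e-07) and PHGDH to 77.8, 76.6 and 69.2 CPM (log2 change -1.55, SE 0.34, adjusted p = 0.000873). MTHFD1 changed by -1.71 (SE 0.27), MTHFD1L by -1.69 (SE 0.21) and ALDH1L2 by -3.00 (SE 0.64), the last from counts of 26 to 27 per library under combo. MTHFD2 was not called, with a log2 change of -0.05 (SE 0.20, adjusted p = 0.889) and an interval of 1.96 SE from -0.45 to 0.35. PSPH (-0.81), SHMT1 (-0.61) and SHMT2 (-0.65) had adjusted p between 0.0536 and 0.0579. With the replicate number as a block all 3 were called and 8 genes fell, with SHMT2 at -0.67 (adjusted p = 0.00562), SHMT1 at -0.65 (adjusted p = 0.00712) and PSPH at -0.81 (adjusted p = 0.00856), and 8 were called within fraction as well. SHMT1 was called without hBMSC-CM combo replicate 2 (-0.83, adjusted p = 0.0223).

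Everolimus alone in hBMSC-CM lowered 1 of the 9 genes, PSAT1, where 0.410% of all genes were called and 0.185% called lower. PSAT1 was at 74.4, 61.4 and 54.5 CPM in vehicle and 25.4, 25.01 and 23.5 CPM under everolimus, with no overlap (log2 change -1.36, SE 0.29, adjusted p = 0.0236). The call was lost without hBMSC-CM vehicle replicate 1 (-1.23, adjusted p = 0.064) and without hBMSC-CM everolimus replicate 1 (-1.36, adjusted p = 0.116), 2 (-1.38, adjusted p = 0.158) or 3 (-1.33, adjusted p = 0.182). The adjusted p of PSAT1 over the alternatives ran from 4.12e-05 to 0.182. ALDH1L2 was at 1.90, 1.34 and 1.49 CPM under everolimus, below all 3 vehicle cultures (log2 change -1.92, SE 0.60, adjusted p = 0.177), and was called by DESeq2 (adjusted p = 0.0206) and limma voom (adjusted p = 0.017). PHGDH was at 137, 129 and 133 CPM, also below vehicle (log2 change -0.72, SE 0.34, adjusted p = 0.546). SHMT2 at 196, 186 and 186 CPM (log2 change -0.51, SE 0.26, adjusted p = 0.59) and MTHFD2 at 70.6, 70.7 and 68.8 CPM (log2 change -0.51, SE 0.21, adjusted p = 0.401) were below all 3 vehicle cultures as well and were not called. The same held for PSPH (log2 change -0.54, SE 0.32, adjusted p = 0.698) and SHMT1 (log2 change -0.11, SE 0.24, adjusted p = 0.971). MTHFD1 at 139, 122 and 131 CPM overlapped vehicle (log2 change -0.36, SE 0.26, adjusted p = 0.781). How many of all genes lay below vehicle in this way was not counted, and the everolimus libraries were the tightest. MTHFD1L at 84.8, 78.6 and 78.0 CPM overlapped vehicle (log2 change -0.10, SE 0.20, adjusted p = 0.97). The everolimus libraries are those that stood apart, and the part of that in these values was not tested.

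The share of each message in heavy polysomes relative to input was first described within each condition. PHGDH, SHMT1 and SHMT2 were higher and ALDH1L2 lower in heavy polysomes than in input. Between 57.9% and 65.4% of all genes were called in these comparisons (65.4% in RPMI vehicle, 57.9% in RPMI quizartinib, 59.3% in RPMI combo, 63.6% in hBMSC-CM vehicle, 58.7% in hBMSC-CM quizartinib, 58.6% in hBMSC-CM everolimus and 63.0% in hBMSC-CM combo), so a call on its own was common. The members called were 4, 4, 6, 5, 3, 4 and 7 of 9 in the same order. A value in the heavy fraction is a message's share of that library's reads, and ribosomes per message were not measured. With library size alone as the scale, the median of all genes moved down by between 0.28 and 0.55 on the log2 scale, and the changes below are relative to the TMM scale.

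SHMT1 was called higher in polysomes in all 7 conditions, with log2 differences from 1.28 in hBMSC-CM everolimus to 1.70 in RPMI quizartinib, and SHMT2 likewise, from 1.02 in everolimus to 1.69 in hBMSC-CM vehicle. In RPMI vehicle SHMT2 was at 328, 307 and 327 CPM in input and 1465, 855 and 538 CPM in polysomes, above input in each culture. PHGDH was called in 6 conditions, with differences from 1.45 in RPMI vehicle to 1.96 in hBMSC-CM combo, and was at 0.65 (SE 0.34, adjusted p = 0.0966) in everolimus. The 3 everolimus cultures were close together at 0.68, 0.69 and 0.57, and PHGDH was called there with no filter on low counts (0.75, adjusted p = 0.00911) and in a fit of the groups compared only (0.61, adjusted p = 2.63e-08), which takes the spread from these tight libraries alone. In RPMI vehicle its polysome values were 1508, 623 and 364 CPM, so replicate 1 decided much of the difference. Without RPMI vehicle replicate 1 the PHGDH difference was 0.69 (adjusted p = 0.0994).

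ALDH1L2 was lower in polysomes in every condition, called in 5 of 7, with log2 differences from -3.33 in RPMI vehicle (SE 0.65, adjusted p = 4.35e-05) to -1.09 in RPMI quizartinib (SE 0.64, adjusted p = 0.14). In RPMI vehicle its polysome counts were 10 to 28 per library against 213 to 473 in input, and the polysome groups of RPMI quizartinib and hBMSC-CM combo each included a library at 0. The ALDH1L2 call was lost without hBMSC-CM everolimus replicate 1 (-1.78, adjusted p = 0.0714), 2 (-1.96, adjusted p = 0.052) or 3 (-1.90, adjusted p = 0.0611) and without hBMSC-CM combo replicate 2 (-1.87, adjusted p = 0.0565), and it was gained without RPMI quizartinib replicate 3 (-2.02, adjusted p = 0.0317).

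The other 5 genes lay nearer to input. PSPH was called in no condition, with differences from 0.02 to 0.43. MTHFD1 ran from -0.22 in everolimus to 0.79 in RPMI quizartinib and was called higher in RPMI quizartinib, RPMI combo and hBMSC-CM combo. MTHFD1L ran from 0.05 to 0.63 and was called in RPMI combo, hBMSC-CM vehicle and hBMSC-CM combo. MTHFD2 ran from 0.09 to 0.59, called in everolimus, and PSAT1 from 0.12 to 0.67, called in hBMSC-CM combo. With library size alone none of these MTHFD1, MTHFD1L, MTHFD2 and PSAT1 calls passed, and in RPMI vehicle MTHFD1 (-0.75, adjusted p = 0.0162) and MTHFD1L (-0.51, adjusted p = 0.0448) were then called lower. The stricter filter, a mean of at least 10 CPM, also ended these calls except that of MTHFD1 in RPMI quizartinib. The calls were also lost without single cultures: MTHFD1 without RPMI quizartinib replicate 3 (0.52, adjusted p = 0.151), and, in combo, MTHFD1 and MTHFD1L without RPMI combo replicate 3 (0.26, adjusted p = 0.5 and 0.27, adjusted p = 0.347). In hBMSC-CM combo PSAT1, MTHFD1 and MTHFD1L were lost without replicate 1 (0.32, 0.53 and 0.37) or 3 (0.64, 0.56 and 0.33). MTHFD1L was lost without hBMSC-CM vehicle replicate 1 (0.47) or 3 (0.47) and MTHFD2 without hBMSC-CM everolimus replicate 1 (0.54) or 2 (0.56). PSAT1 was gained in RPMI quizartinib without replicate 1 (0.82, adjusted p = 0.0498).

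Same-numbered input and polysome libraries were paired by the 0.1 criterion in RPMI vehicle, RPMI quizartinib and hBMSC-CM vehicle. In RPMI quizartinib the replicate number as a block raised the calls from 4 to 7, with PSAT1 at 0.69 (adjusted p = 0.00505), MTHFD1L at 0.44 (adjusted p = 0.0434) and MTHFD2 at 0.43 (adjusted p = 0.023). With a term for each culture PSAT1 was at 0.71 (adjusted p = 0.0041) and MTHFD1L at 0.46 (adjusted p = 0.0382). In hBMSC-CM vehicle the block called MTHFD2 (0.40, adjusted p = 0.0325). The block within fraction called PSAT1 there (0.49, adjusted p = 0.0464). That block takes replicate 1 as reference in each fraction, so the value is fitted for replicate 1 and is not the condition mean. The PSAT1 cultures were at 0.853, 0.117 and 0.132, with replicate 1 the highest.

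**Figure D4:**
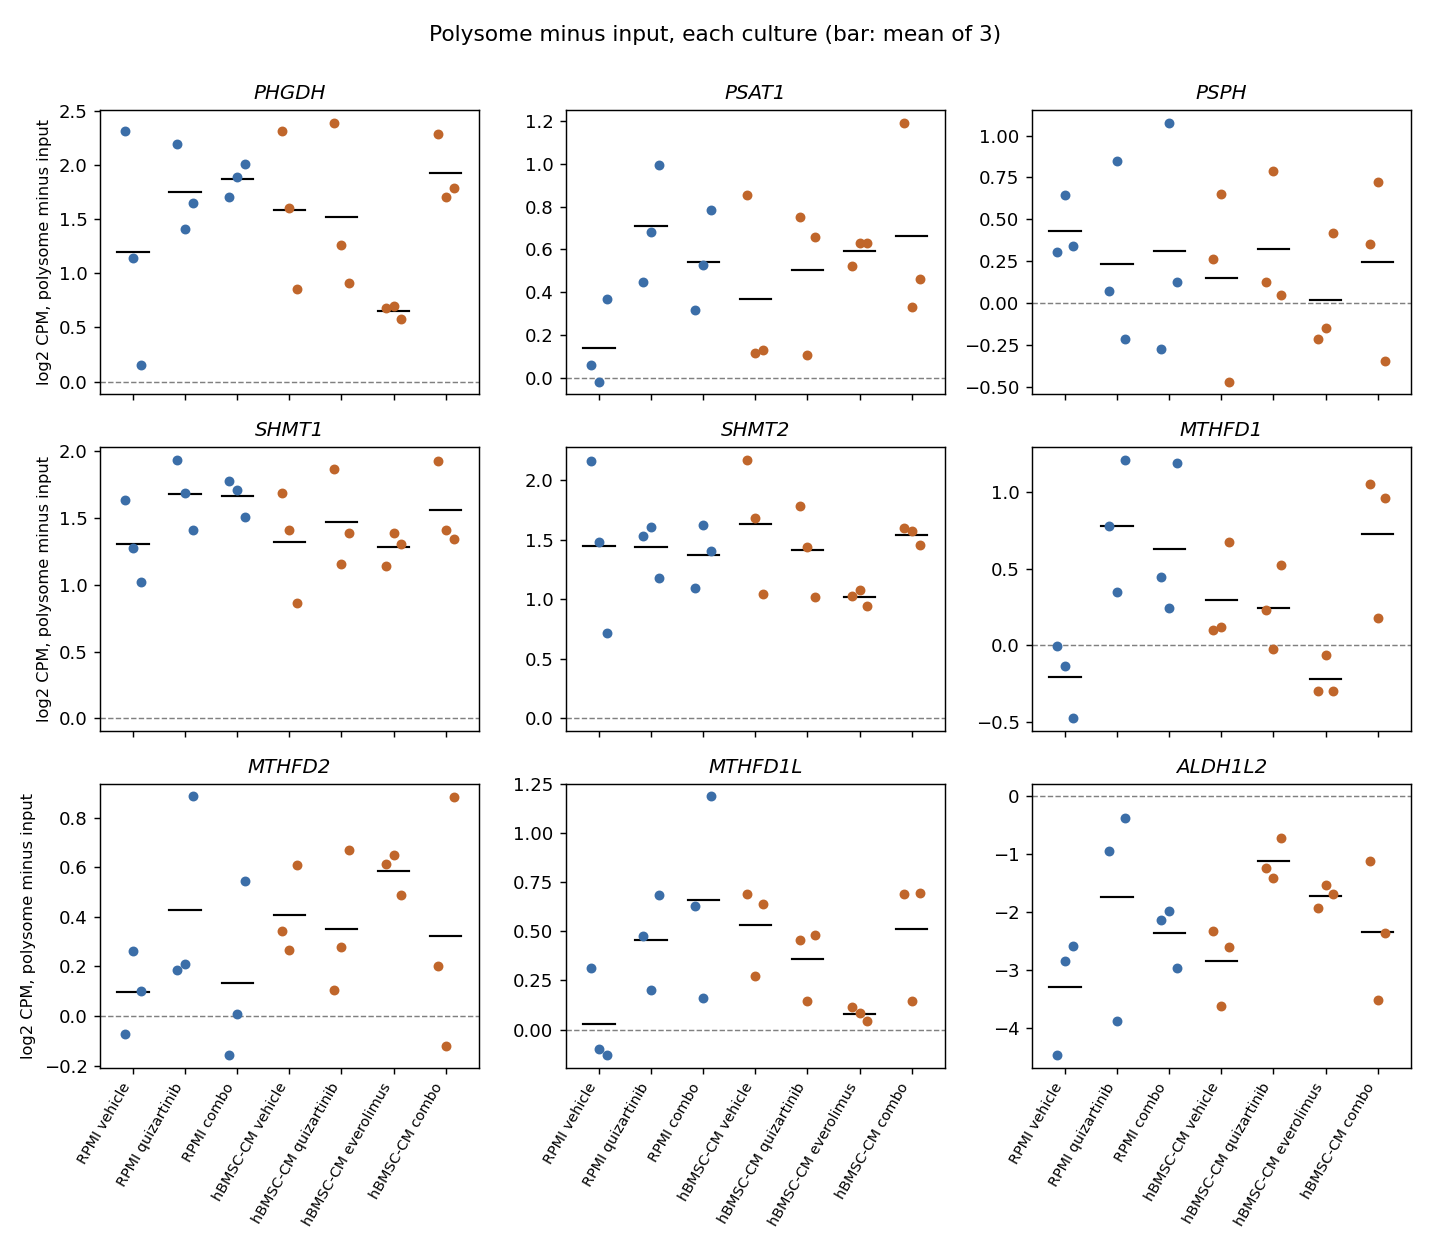
Log2 CPM of polysome minus input for each gene in every culture (points) with the mean of 3 (bar) over the 7 conditions, RPMI in blue and hBMSC-CM in orange, with equality as a dashed line. PHGDH, SHMT1 and SHMT2 lie above 0 in all 21 cultures and ALDH1L2 below 0 in all 21. The points of PSAT1, PSPH, MTHFD1, MTHFD2 and MTHFD1L fall on both sides.

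Without a block on replicate number, no drug or medium comparison gave a call for the polysome share of the 9 genes relative to input. The study reports that quizartinib and combo lowered RNA yield more in heavy polysomes than in input. Shares of a library do not show such a common fall, so only shifts relative to other messages were tested. In edgeR 0 of 9 genes were called in each of 9 comparisons, and limma voom and DESeq2 called 0 as well. The background was 1.55% for quizartinib against vehicle in RPMI, 0.0232% for combo against vehicle in hBMSC-CM and 0% for the other 7. Unadjusted, 2 genes had a p under 0.05 in RPMI under quizartinib, 1 under everolimus and none in the other 7 comparisons. In RPMI under quizartinib, MTHFD1 moved by 0.98 (SE 0.37, adjusted p = 0.175 in edgeR) and ALDH1L2 by 2.25 (SE 0.89, adjusted p = 0.202 in edgeR). MTHFD1 polysome minus input was -0.01, -0.13 and -0.48 in vehicle and 0.78, 0.34 and 1.21 under quizartinib, with no overlap. MTHFD1 was called with the replicate number as a block (0.98, adjusted p = 0.0416) and within fraction (0.97, adjusted p = 0.0102). Under everolimus PHGDH moved by -1.01 (SE 0.48, adjusted p = 1.0 in edgeR), and its polysome minus input was 0.68, 0.69 and 0.57 against 2.31, 1.60 and 0.86 in hBMSC-CM vehicle. For MTHFD2, whose input level differed between media under quizartinib, the difference between media in the polysome effect was -0.36 (SE 0.41), so a change of this size was within its error. The SE of these polysome differences was between 0.29 and 0.68 for the genes other than ALDH1L2, and up to 1.25 for ALDH1L2, which limits what could be detected.

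Other genes of the pathway were taken as 3 lists, to be read against the shares of all genes called: 34.6% in RPMI (18.0% lower), 12.3% in hBMSC-CM (6.84% lower) and 1.96% for the difference between media. Under quizartinib in RPMI, of the serine and glycine handling genes 10 of 13 were tested, 2 were called higher and 4 lower. Of the folate transport and cycle genes 11 of 18 were tested, 1 higher and 5 lower, and of the methionine cycle and transsulfuration genes 10 of 12, 0 higher and 4 lower. The share of methionine genes called was near the 34.6% of all genes called in either direction. All 4 were lower, however, beside 18.0% of all genes called lower. Their median log2 changes were -0.43, -1.04 and -0.69, beside 0.08 for all genes tested. TYMS, which makes thymidylate, had the smallest adjusted p among falls (log2 change -1.80, SE 0.15, adjusted p = 1.67e-11), and SDS, which breaks serine down, among rises (4.33, SE 0.71, adjusted p = 8.71e-06). In hBMSC-CM TYMS (-1.30, SE 0.15) and SDS (2.93, SE 0.70) again held these places, and the counts were 1 higher and 4 lower, 1 higher and 5 lower, and 0 of either, with medians of -0.36, -0.78 and -0.24 beside 0.01 for all genes. In the difference between media MAT2A, which makes S-adenosylmethionine, had the smallest adjusted p among the 4 list genes called (1.30, SE 0.28, adjusted p = 0.00618). All 4 differences were above 0, which for MAT2A was a weaker fall in hBMSC-CM.

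Of the known regulators, MYC input was 577, 453 and 441 CPM in RPMI vehicle, 35.2, 36.5 and 56.3 under quizartinib in RPMI, 606, 422 and 399 in hBMSC-CM vehicle and 449, 322 and 362 under quizartinib in hBMSC-CM. ATF4 input ranges overlapped between all 4 groups, at 497, 379 and 513 CPM in RPMI vehicle, 368, 314 and 569 under quizartinib in RPMI, 378, 342 and 837 in hBMSC-CM vehicle and 292, 256 and 600 under quizartinib in hBMSC-CM. Between same-numbered cultures, however, ATF4 was lower under quizartinib in each of the 3 hBMSC-CM pairs and in 2 of the 3 RPMI pairs. These levels stand beside the members as a description, and their part in the results was not tested.

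Across the 21 input libraries, which share the drug and medium groups, the members followed each other to different degrees (Pearson r of log2 CPM, a description with no test). MTHFD1 and MTHFD1L were closest (r = 0.973), and PSAT1 was near ALDH1L2 (0.95) and PSPH (0.941). For PSPH, SHMT2 and ALDH1L2, 4 of the other 8 members were among the 100 genes most like each. MTHFD2 had no member among its 100, its highest r with a member was 0.707 with MTHFD1, and the genes most like it were AGO2 (0.957), LBR (0.937) and WARS (0.926). SHMT1 had none either, with EEF1AKNMT (0.944), LAT2 (0.934) and GSPT1 (0.932) first. MTHFD1 was most like C1QBP (0.99), GPI (0.988) and CCT2 (0.985), and MTHFD1L most like MRPL3 (0.986), SAE1 (0.983) and LARS (0.982). PHGDH was led by PDHA1 (0.978), GARS (0.968) and CCT4 (0.968), and PSAT1 by BCAT1 (0.975), SERBP1 (0.972) and GOT1 (0.97). PSPH was led by ATP5MC3 (0.943), PSAT1 (0.941) and GRB10 (0.941), SHMT2 by CCT4 (0.952), FH (0.95) and HSPD1 (0.947), and ALDH1L2 by TXN (0.957), PSAT1 (0.95) and FH (0.941).

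In GENCODE v44 on GRCh38 exons of SHMT1, SHMT2, MTHFD1, MTHFD2 and ALDH1L2 share positions with antisense genes, and the sources used here do not state whether counting used strand, so reads of the partners cannot be told apart. Pseudogenes named after PSAT1, PSPH, SHMT1, MTHFD1 and MTHFD2 were in the table. The highest was PSPHP1, with at most 234 counts in a library, while PSPH held 348 to 1717, so PSPH is uncertain where reads could be split.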

How the data were processed

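The deposited values are raw gene counts of 42 libraries. Per the labels and the study's methods, the authors made poly(A) libraries, trimmed reads with BBDuk, aligned them with STAR 2.6.0a to Ensembl hg38 and counted reads per gene, with no normalization. Columns were matched to samples by name, and 0 were left unused. Rows sharing a gene name (150 names) were summed. The filter kept genes whose mean was 1 count or more and 1 CPM or more.

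All libraries entered 1 robust quasi-likelihood fit in R 4.3.3 with edgeR 4.0.16, with 14 group means and TMM factors (1.06 to 1.25 for input, 0.705 to 1.04 for polysome). Polysome comparisons are interactions with the fraction. SE is the log2 change divided by the square root of F, and log2 CPM used a prior count of 2. The fit was tested on simulated data, where it recovered most of the larger changes put in and missed most of the smaller ones. The recovery asked of this test was lowered after its result was seen. A gene that was not called may therefore still have changed. The members and lists were chosen with earlier results of these data known. The text names the 9 members, the list gene with the smallest adjusted p in each direction, ATF4 and MYC by level, and for each member the 3 genes with the highest r. Lengths and positions came from GENCODE v44. Alternatives were limma 3.58.1 voom, DESeq2 1.42.0, RLE factors, library size only, no filter, a mean of at least 10 CPM, the groups compared only, 3 kinds of block and each of the 21 cultures left out.

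Replicate numbers come from the labels. Deviations from group means of same-numbered libraries correlated above 0.1 in all 45 input pairs and all 45 polysome pairs without everolimus (lowest 0.284 and 0.153), so the numbers were taken to pair these. They did so in 0 of 18 input and 1 of 18 polysome pairs with everolimus. Within a condition, input and polysome correlated above 0.1 in 15 of 18 pairs without everolimus. In everolimus 0 of 3 such pairs did (r between -0.02 and 0.015), so values of polysome minus input per culture rest there on the labels alone.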

Additional observations from a re-analysis of the deposited data

Results flagged for a closer look

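The effect of quizartinib on input RNA differed between media by the interaction test for MTHFD2 (1.51 on the log2 scale, SE 0.29) and MTHFD1L (1.34, SE 0.29), both with a weaker fall in hBMSC-CM than in RPMI. For MTHFD1L, hBMSC-CM was lower than RPMI without drug (-0.72, adjusted p = 0.069 in edgeR) and higher under quizartinib (0.62, adjusted p = 0.0561), neither called. For MTHFD2 these differences were -0.18, not called, and 1.33, called (adjusted p = 2.53e-05). MTHFD2 was higher in all 3 hBMSC-CM quizartinib cultures than in any RPMI quizartinib culture. Groups of 3 libraries are too small for the test of single outlying samples.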

How the results depend on the processing

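The 56 calls of single genes kept their direction in all 778 values under the alternatives and kept the call in 718 of them. Of input levels, 33 of 63 moved by less than 1 SD when CPM were taken per library total. The counts of genes called changed by over 1.5 times as follows. With the replicate block, they were 1 for the polysome effect of quizartinib in RPMI, 1 for hBMSC-CM against RPMI without drug, 2 under quizartinib, 8 for combo against vehicle and 7 for polysome against input in RPMI quizartinib. With the replicate block within fraction, they were 1, 2, 3 and 8 for the first 4 of these. They were also 8 for quizartinib in hBMSC-CM and 4 for the difference between media. For everolimus there were 5 (PHGDH -0.72, SHMT2 -0.51, MTHFD2 -0.47 and ALDH1L2 -1.93 beside PSAT1), with libraries the numbers did not pair. The same block gave 5 for polysome against input in hBMSC-CM quizartinib. For polysome against input, however, this block fits the value of replicate 1 and not the condition mean. For hBMSC-CM against RPMI without drug, voom and DESeq2 gave 1. Under quizartinib, DESeq2, RLE factors and the stricter filter gave 2. For everolimus, voom, DESeq2 and the groups compared only gave 2. For polysome against input, the stricter filter, under which ALDH1L2 was not tested, gave 3 in RPMI combo, 3 in hBMSC-CM vehicle, 2 in everolimus and 3 in hBMSC-CM combo. Library size only gave 4 in hBMSC-CM combo, and the groups compared only gave 7 in everolimus. PHGDH in everolimus polysomes was also called with the replicate block (0.65, adjusted p = 0.031). The block within fraction gave 1.19 (adjusted p = 3.43e-05), which lay above all 3 cultures (0.679, 0.693 and 0.575). That value was fitted for replicate 1 with terms shared across conditions, so it is no measure of the everolimus group. The cause of the other shifts was not tested. With a culture left out, counts were 8 to 9 for quizartinib in RPMI, 3 to 5 in hBMSC-CM, 1 to 2 for the medium under quizartinib, 0 to 1 for everolimus, 5 to 6 for combo against vehicle, 2 for the difference between media and 0 for the other input and all polysome effects. For polysome against input they were 3 to 4, 4 to 5 and 4 to 6 in RPMI vehicle, quizartinib and combo, and 4 to 5, 3, 2 to 3 and 4 to 6 in hBMSC-CM vehicle, quizartinib, everolimus and combo. Depth limits ALDH1L2, with at most 36 counts in a polysome library.

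Library size only moved the share of calls that were higher in polysomes from 48.1% to 27.5% in RPMI vehicle, 53.9% to 38.9% in RPMI quizartinib, 53.5% to 41.8% in RPMI combo, 46.6% to 26.0% in hBMSC-CM vehicle, 50.7% to 30.4% in hBMSC-CM quizartinib, 47.6% to 32.0% in everolimus and 52.1% to 35.7% in hBMSC-CM combo.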
